A study of Homo sapiens with 9 samples.

Results

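The expression of 9 keratin genes was followed in OVCAR5 ovarian cancer cells. For this report 6 were grouped as simple epithelial (KRT7, KRT8, KRT18, KRT19, KRT80 and KRT23) and 3 as stratified epithelial (KRT5, KRT6A and KRT17). They were chosen by symbol and matched to the identifiers of the count table through the GENCODE annotation, which gave 9 genes of the 60649 in the table. Of these 9 genes, 8 had enough counts to be tested, and KRT5 did not.

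Keratins build the intermediate filaments of epithelial cells. A filament needs chains of both kinds, the acidic type I (among them KRT18, KRT19, KRT23 and KRT17) and the basic type II (among them KRT7, KRT8, KRT80, KRT5 and KRT6A). KRT8 and KRT18 are the usual partners in simple epithelia, with KRT7 and KRT19 added in ducts and in the surface of the female reproductive tract, and KRT7 is used in pathology to recognise ovarian carcinoma. In stratified epithelia KRT5 is a chain of basal cells, and KRT6A and KRT17 are induced on injury.

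RNA sequencing measured 9 libraries, whose titles put 3 in each of the groups NC, SM2 and SM4. All 9 are given as OVCAR5, an established human ovarian cancer cell line, carried as stable lines after lentiviral transduction and puromycin selection. By the labels NC is the control, and SM2 and SM4 are knockdown lines. The gene lowered is given as METTL3, the catalytic subunit of the complex that writes N6-methyladenosine (m6A) into RNA. The study asked what depends on METTL3, and the comparisons here ask how the keratins differed between the labelled groups. The series text calls the control parental whereas the study's methods give a control hairpin, it is not stated which hairpin SM2 and SM4 carry, and a source field lists a different OVCAR name for each SM4 library. Nothing states that the 3 libraries of a group came from separate cultures, so p-values measure only the spread between these libraries, which may be technical.

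Total counts ran from 44103272 to 63693728 per library, and 1 CPM (a normalized read count relative to the library total, scaled with TMM factors of 0.989 to 1.01) stood for 43.8 to 63.2 counts. METTL3 went against the labels. It was at 35.8 ± 1.19 CPM in NC, 38.9 ± 1.64 CPM in SM2 and 60.2 ± 2.48 CPM in SM4 (SD, n = 3), higher in the libraries labelled SM4 by 0.75 on the log2 scale (adjusted p 2.21e-09) and not called in those labelled SM2 (0.12, adjusted p 0.12). SM4 was also above SM2 (0.63, adjusted p 7.46e-08), so neither group labelled as a knockdown had less METTL3 RNA than the group labelled as control, and SM4 had the most of the 3. The group labels may be exchanged, which the labels themselves cannot settle. The study lists RNA of METTL3, of the keratin KRT13 and of involucrin (IVL) as lower in both of its knockdowns than in its control. Among the libraries here each of them averaged highest in SM4. If the control of the study were SM4, SM2 against NC would compare knockdown with knockdown. Every direction below is therefore a direction between libraries with these labels, and none can be read as the effect of losing METTL3. SM2 replicate 3 stood apart from the other libraries of its group, with a chi-square per degree of freedom of 16.8 and 13.9 against them, where the other pairs of replicates gave 4.23 to 6.1, so results are also given without it. All 10 epithelial markers reached 1 CPM. Of the markers of other cell types, 1 of 10 for fibroblasts, 1 of 10 for endothelium, 2 of 10 for immune cells and 4 of 8 for mesothelium did so, and KDR, CD3D, MS4A1 and ITLN1 were at 0 in every library. The immune sum lay at 41.4 to 45.4 CPM in NC, 59.3 to 63.4 in SM2 and 41.5 to 44.6 in SM4. Within it, LYZ averaged 36.7, 51.9 and 32.7 CPM and CD14 5.76, 8.48 and 10.3 CPM in these groups. PTPRC averaged 0, 0.0252 and 0.00548 CPM. The mesothelial sum lay at 147 to 161, 164 to 169 and 185 to 197 CPM, the endothelial sum at 17.6 to 19.6, 14.2 to 14.6 and 17.1 to 17.5 CPM, and the fibroblast sum at 21.5 to 25.3, 22.7 to 27.6 and 22.3 to 25.2 CPM, and the part of these shifts in the results was not tested.

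The abundant keratins of these cells were those of simple epithelia, and most of them moved a little between the groups. Against NC, KRT8, KRT18, KRT19 and KRT23 were higher in SM2 and in SM4, KRT80 was lower, and KRT7 was not called. KRT23 moved most, to 2.11 times its NC level in SM2 and 1.62 times in SM4, whereas KRT8, KRT18, KRT19 and KRT80 changed by at most 0.42 on the log2 scale. Among the stratified keratins KRT6A and KRT17 stayed near 1 CPM with no call, and KRT5 was close to nothing.

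In SM2 against NC, 4 of the 8 tested keratins were called higher and 1 lower, where 22.3% of all 19674 tested genes were called, 12% higher and 10.3% lower. The same 4 keratins were higher and the same 1 lower in SM4 against NC, where 21.2% of all genes were called, 11% higher and 10.2% lower. Both comparisons share the NC libraries. SM4 against SM2 tests the difference between the labelled groups directly and called 1 keratin, KRT23, lower in SM4, where 12.8% of all genes were called, 6.04% higher and 6.76% lower. The median log2 fold change of the 8 keratins was 0.22, 0.17 and -0.12 in these comparisons, beside 0 for all genes. The libraries of both groups did not overlap for 6, 6 and 3 of the 8 keratins, where this held for 35.2%, 38.4% and 28.3% of all genes. Without SM2 replicate 3 the number of keratins called became 6 in each comparison with NC and 3 in SM4 against SM2, since KRT7 (SM2 against NC), KRT6A (SM4 against NC) and KRT19 and KRT80 (SM4 against SM2) were then called too.

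**Figure D1:**
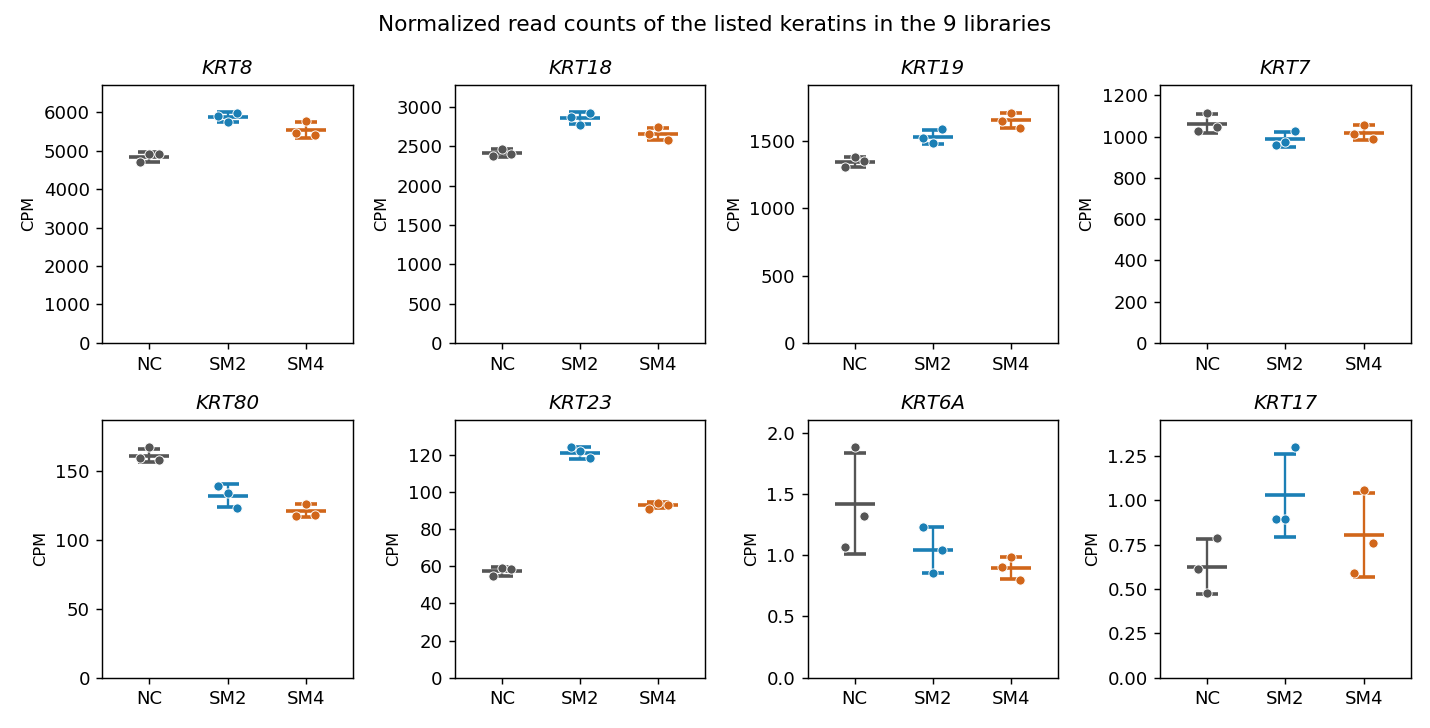
Normalized read counts (CPM, y axis from 0) of the 8 tested keratins in the libraries labelled NC, SM2 and SM4, with each point a library, the long bar the mean and the error bar the SD of n = 3. KRT8, KRT18, KRT19 and KRT23 lie higher in SM2 and SM4 than in every NC library and KRT80 lies lower, while KRT6A and KRT17 stay between 0.478 and 1.88 CPM.

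KRT8 (ENSG00000170421.12, chromosome 12, 52897187 to 52949954, minus strand, GRCh38) is the main type II chain of simple epithelia. It was at 4695, 4921 and 4909 CPM in the NC libraries, at 5890.3, 5739 and 5988 CPM in SM2, and at 5449, 5768 and 5399.6 CPM in SM4, from 205781 to 364558 counts. All NC libraries lay below all others, and SM2 and SM4 overlapped. Against NC it rose by 0.28 in SM2 (SE 0.036, adjusted p 8.03e-06) and by 0.19 in SM4 (SE 0.036, adjusted p 0.000435) on the log2 scale, and the difference between SM4 and SM2 of -0.08 (95% interval -0.16 to -0.01) was not called (adjusted p 0.141). In bulk RNA, fewer cells that express a gene and less RNA per cell cannot be told apart.

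KRT18 (ENSG00000111057.11, chromosome 12, 52948871 to 52952906, plus strand), the type I partner of KRT8, followed the same order. Its values were 2374, 2468 and 2406 CPM in NC, 2868, 2776 and 2929 CPM in SM2, and 2654, 2742 and 2579.7 CPM in SM4. The groups did not overlap. It rose by 0.24 (SE 0.0365, adjusted p 5.09e-05) in SM2 and by 0.14 (SE 0.0365, adjusted p 0.00916) in SM4 on the log2 scale, and the SM4 call was lost without NC replicate 1 (0.13, adjusted p 0.0739) or SM4 replicate 2 (0.12, adjusted p 0.0523). The difference between SM4 and SM2 was -0.10 (adjusted p 0.0681) and was called without SM4 replicate 2 (-0.13, adjusted p 0.0475). Per kilobase of transcript the ratio of KRT18 to KRT8 was 0.63 ± 0.0103 in NC, 0.615 ± 0.00351 in SM2 and 0.606 ± 0.00794 in SM4. The libraries ran from 0.619 to 0.639, 0.611 to 0.618 and 0.6 to 0.615, so the ratio was slightly lower in SM2 and SM4 than in NC.

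Reads of KRT8 and KRT18 are hard to place, and this bears on both values. Their genes overlap at their ends on opposite strands, and whether the counting used strand is not stated. As counted, 51 processed copies of KRT8 held 8.09% to 8.67% as many counts as KRT8 itself, and 68 copies of KRT18 held 7.94% to 8.5% as many as KRT18. Of all stretches of 50 bases, 39% of the KRT8 transcript and 35.3% of the KRT18 transcript recur exactly in another keratin gene or copy, and none do at 150 bases. With the copies added, the log2 fold changes were 0.28 and 0.20 for KRT8 and 0.24 and 0.14 for KRT18 in SM2 and SM4 against NC, and each was still called.

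KRT19 (ENSG00000171345.13, chromosome 17, 41523617 to 41528308, minus strand), a type I keratin without the usual tail domain, had its highest values in SM4 instead. It was at 1306, 1379 and 1353 CPM in NC, 1521, 1487 and 1591 CPM in SM2, and 1654, 1713 and 1598 CPM in SM4. The 3 groups did not overlap. On the log2 scale it rose against NC by 0.19 in SM2 (SE 0.0396, adjusted p 0.00143) and by 0.30 in SM4 (SE 0.0396, adjusted p 1.04e-05). The difference between SM4 and SM2 was 0.11 (95% interval 0.03 to 0.19, adjusted p 0.076), which was called without SM2 replicate 3 (0.14, adjusted p 0.0127).

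KRT7 (ENSG00000135480.16, chromosome 12, 52232520 to 52252186, plus strand), the other type II chain of glandular epithelium, was the abundant keratin that did not follow KRT8. It was at 1027, 1116 and 1046 CPM in NC, 957, 975 and 1027 CPM in SM2, and 1012, 1058 and 987 CPM in SM4, and all 3 groups overlapped. The log2 fold changes of -0.11 (95% interval -0.20 to -0.02, adjusted p 0.0774) in SM2 and -0.06 (-0.15 to 0.03, adjusted p 0.363) in SM4 were not called, and without SM2 replicate 3 the value in SM2 was called (-0.13, adjusted p 0.0134). Over all 20 alternative fits the SM2 value ran from -0.134 to -0.073. It stayed uncalled in 17 of them, and the lowest adjusted p was 0.00173. The ratio of KRT19 to KRT7 per kilobase went from 1.48 ± 0.0361 in NC to 1.82 ± 0.0404 in SM2 and 1.90 ± 0.0115 in SM4, with no overlap between NC and the others. KRT7-AS, an antisense RNA that overlaps exons of KRT7, was at 9.27 ± 0.589 CPM in NC and lower in SM2, at 6.21 ± 0.305 CPM (-0.57 on the log2 scale, adjusted p 0.000165), and in SM4, at 7.03 ± 0.401 CPM (-0.40, adjusted p 0.00391). Reads of the antisense pair cannot be separated if strand was not used. The span of KRT86, on the same strand, also overlaps that of KRT7. KRT86 averaged 0.817 CPM in NC, 0.897 in SM2 and 0.714 in SM4.

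METTL3 and its partners act at a short consensus whose most used form is GGACU, so the members' transcripts were searched for it (GGACT in DNA letters, sense strand, 1 representative transcript a gene). A match is only a run of letters, and whether any was methylated was not measured here. KRT7, KRT8 and KRT6A carried 1 at the same place in the coding sequence, shown with 12 bases on either side and the motif in capitals. The 3 type II chains share this stretch almost letter for letter, and in each it crosses the junction of exons 2 and 3.
KRT7: ggatgtggtggaGGACTtcaagaataagt
KRT8: ggggctggtggaGGACTtcaagaacaagt
KRT6A: ggacctggtggaGGACTtcaagaacaaat
The genomic span of each, intron included, was chr12:52235340-52237510 (plus strand) for KRT7, chr12:52901218-52901890 (minus) for KRT8 and chr12:52491171-52491548 (minus) for KRT6A. This is the only match in KRT7 and KRT8 and one of 2 in KRT6A. KRT18 had 2 matches and KRT19 had 1, all in the coding sequence. Over the 19061 representative transcripts, 88.5% had at least 1 match and the median was 0.92 per kilobase.

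KRT80 and KRT23 were the scarcer of the keratins grouped as simple epithelial, and they moved in opposite directions. KRT80 (ENSG00000167767.14, chromosome 12, 52168996 to 52192014, minus strand), a type II chain whose protein lies near desmosomes, was at 159, 167 and 158 CPM in NC, 139, 134 and 123 CPM in SM2, and 117, 126 and 118 CPM in SM4. Every NC library lay above all others. It fell by 0.29 (SE 0.0498, adjusted p 0.000191) in SM2 and fell by 0.42 (SE 0.0498, adjusted p 2.35e-06) in SM4 on the log2 scale. The difference between SM4 and SM2 was -0.13 (adjusted p 0.0985), and without SM2 replicate 3, the lowest of its group, it was called (-0.18, adjusted p 0.00488).

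KRT23 (ENSG00000108244.17, chromosome 17, 40922700 to 40937646, minus strand), a type I chain found in gastrointestinal epithelium and tumours, was at 54.5, 58.9 and 58.5 CPM in NC, 124, 122 and 118 CPM in SM2, and 91, 94.2 and 93.1 CPM in SM4. The groups were far apart, with SM4 between NC and SM2. On the log2 scale it stood 1.08 above NC in SM2 (SE 0.0467, adjusted p 2.42e-12) and 0.69 above it in SM4 (SE 0.0465, adjusted p 7.43e-10). It was the one listed keratin called between SM4 and SM2, where it was lower by 0.39 in 3 of 3 libraries (log2 fold change -0.39, SE 0.0456, adjusted p 4.97e-06). No stretch of 50 bases of its transcript recurs in another keratin, although the non-coding gene ENSG00000234477 overlaps it on the other strand.

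Among the listed keratins, the representative transcripts of KRT23 and KRT80 had the lowest and the highest density of the GGACU consensus. KRT23 had 0 matches in 2209 bases. KRT80 had 7 in 3873 bases, 3 coding and 4 in the 3′ UTR, which is 1.81 per kilobase, and 86.9% of all representative transcripts had a lower density. Of these, 2 matches of the UTR lie only 6 bases apart, so that each appears in lower case in the other's flank, and they are shown beside the first coding match, in exon 2.
KRT80 exon 2: cctgcagggccaGGACTcagccatcttcg
KRT80 UTR, upstream: gcctcggaactgGGACTgggactggctca
KRT80 UTR, downstream: gaactgggactgGGACTggctcatccacc
They lie on the minus strand at chr12:52185509-52185537, chr12:52170962-52170990 and chr12:52170956-52170984. Whether the number of matches goes with the direction of change was not tested.

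KRT6A and KRT17 were present at the edge of what the depth resolves. KRT6A (ENSG00000205420.11, chromosome 12, 52487176 to 52493257, minus strand) was at 1.07, 1.88 and 1.32 CPM in NC, 1.23, 0.853 and 1.04 CPM in SM2, and 0.905, 0.981 and 0.8 CPM in SM4, from 41 to 102 counts. NC lay above SM4 and overlapped SM2. The log2 fold changes of -0.46 (95% interval -0.97 to 0.05, adjusted p 0.197) in SM2 and -0.67 (-1.17 to -0.16, adjusted p 0.055) in SM4 were not called. The SM4 value was called without NC replicate 1 (-0.82, adjusted p 0.0297), SM2 replicate 1 (-0.67, adjusted p 0.0483) or SM2 replicate 3 (-0.67, adjusted p 0.0438).

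The coding sequences of KRT6A and KRT6B are 97.5% identical, with 42 mismatches in 1692 bases and a shared run of 269 bases, and KRT6A and KRT6C are 97.9% identical. The following 60 bases of coding exon 2 are the coding stretch of that length with the most differences between KRT6A and KRT6B. Capitals in KRT6A mark the bases that differ in KRT6B, and capitals in the others mark the bases that differ from KRT6A.
KRT6A: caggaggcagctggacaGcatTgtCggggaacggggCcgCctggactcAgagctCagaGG
KRT6B: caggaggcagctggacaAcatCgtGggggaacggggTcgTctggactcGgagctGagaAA
KRT6C: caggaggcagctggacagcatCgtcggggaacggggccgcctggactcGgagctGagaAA
They lie on the minus strand at chr12:52491555-52491614, chr12:52450439-52450498 and chr12:52472099-52472158. KRT6B differed from KRT6A here at 9 bases and KRT6C at 5. KRT6B, a type II chain like KRT6A, was at 1.46, 1.66 and 2.19 CPM in NC, 1.25, 1.14 and 1.02 CPM in SM2, and 0.954, 0.981 and 0.722 CPM in SM4. The NC libraries lay above both other groups. It fell by 1.00 in SM4 against NC on the log2 scale (adjusted p 0.00226) and fell by 0.65 in SM2 (adjusted p 0.0386), a call that was lost without NC replicate 2 (-0.70) or 3 (-0.46) and without SM2 replicate 2 (-0.655) or 3 (-0.57). Because single reads can fall where the copies are identical, the counts of KRT6A, KRT6B and KRT6C were also added together, and the sum fell by 0.579 in SM2 (adjusted p 0.0179) and fell by 0.845 in SM4 (adjusted p 0.00097).

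KRT17 (ENSG00000128422.17, chromosome 17, 41619442 to 41624842, minus strand) was at 0.616, 0.478 and 0.786 CPM in NC, 0.897, 0.895 and 1.3 CPM in SM2, and 0.592, 1.06 and 0.761 CPM in SM4, from 26 to 69 counts. SM2 lay above NC, and SM4 overlapped both. The log2 fold changes were 0.72 (95% interval 0.10 to 1.33, adjusted p 0.0904) in SM2 and 0.36 (-0.26 to 0.98, adjusted p 0.458) in SM4. Its 8 pseudogenes held 78% to 297% as many counts as KRT17 itself, and with these added the log2 fold changes were 0.03 (adjusted p 0.937) and 0.52 (adjusted p 0.0504), so its level is uncertain. KRT5 (ENSG00000186081.12, chromosome 12, 52514575 to 52520530, minus strand), the basal cell chain, had 0, 3 and 4 counts in NC, 4, 2 and 1 in SM2, and 7, 4 and 7 in SM4. A count of 0 allows up to 3 counts, so no fold is given.

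**Figure D2:**
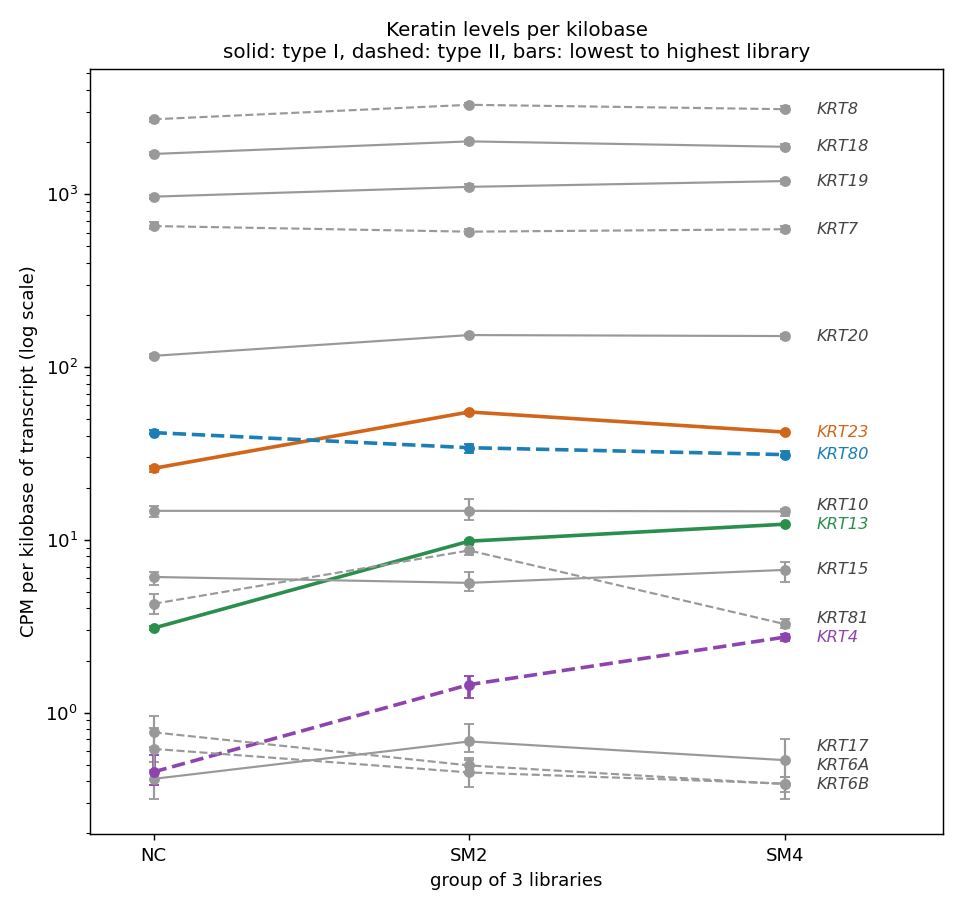
Mean CPM per kilobase of transcript (log axis) of the keratins with at least 1 CPM in some group, in the groups labelled NC, SM2 and SM4 (n = 3 each), with bars from the lowest to the highest library, solid lines for type I and dashed lines for type II. KRT23 crosses KRT80 between NC (25.9 against 41.7) and SM2 (54.9 against 34.1), and KRT13 and KRT4 climb from NC to SM4.

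Dividing CPM by transcript length put the keratins on 1 scale. In NC the order was KRT8 (2714 ± 71.3 CPM per kilobase), KRT18 (1710 ± 33.7), KRT19 (968 ± 26.5) and KRT7 (654 ± 28.8), followed by KRT20 (116 ± 3.32), KRT80 (41.7 ± 1.23) and KRT23 (25.9 ± 1.10). No neighbours in this order overlapped between libraries. In SM2 and SM4 the first 5 kept their places and KRT23 passed KRT80, at 54.9 ± 1.43 against 34.1 ± 2.16 in SM2 and 42.0 ± 0.718 against 31.1 ± 1.24 in SM4. The ratio of KRT23 to KRT80 was 0.601 to 0.648 in the NC libraries, 1.56 to 1.68 in SM2 and 1.31 to 1.38 in SM4. The lower places were KRT6A (0.616 ± 0.179), KRT17 (0.413 ± 0.102) and KRT5 (0.0184 ± 0.0162) in NC, of which KRT6A and KRT17 overlapped. The order of the leading pair depends on the length used. With the merged length of all annotated exons, 6881 bases for KRT8 in place of 1784, KRT18 stood at 787 in NC and KRT8 at 704.

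Together, all 55 keratin genes made up 1.01% ± 0.0253 of the counts in NC, 1.19% ± 0.0306 in SM2 and 1.15% ± 0.0306 in SM4. The 9 listed keratins held 97.3%, 97.0% and 96.9% of that. Type I chains summed to 2845 ± 63.5 CPM per kilobase in NC, 3365 ± 93.8 in SM2 and 3299.7 ± 104 in SM4. Type II chains summed to 3416 ± 95.7, 3944 ± 84.7 and 3770 ± 135. The ratio of type I to type II was 0.826 to 0.84 in NC, 0.847 to 0.858 in SM2 and 0.868 to 0.887 in SM4, so the groups differed by a few percent and did not overlap. KRT8 made up 43.4% ± 0.379, 45.0% ± 0.208 and 43.9% ± 0.289 of the keratin signal per kilobase, KRT7 10.4% ± 0.252 in NC but 8.3% ± 0.202 in SM2, and KRT19 15.5% ± 0.0577 in NC, 15.1% ± 0.173 in SM2 and 16.8% ± 0.153 in SM4.

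Over the 9 libraries, log2 CPM of KRT8 correlated with that of KRT18 at Pearson r = 0.98 and with that of KRT23 at 0.97, while KRT19 and KRT80 ran against each other at -0.91. KRT80 and KRT6A correlated at 0.80. These are descriptions over 9 libraries that fall into 3 groups, so most of each value is the difference between groups. Of 12078 protein-coding genes with at least 1 CPM, those most like KRT8 were TRNP1 (0.997) and TM2D2 (0.987), those most like KRT18 were TRNP1 (0.989) and KRT8 (0.982), those most like KRT80 were PAQR3 and EPAS1 (0.988 each), and those most like KRT23 were HLA-DOA and PLD1 (0.994 each).

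**Figure D3:**
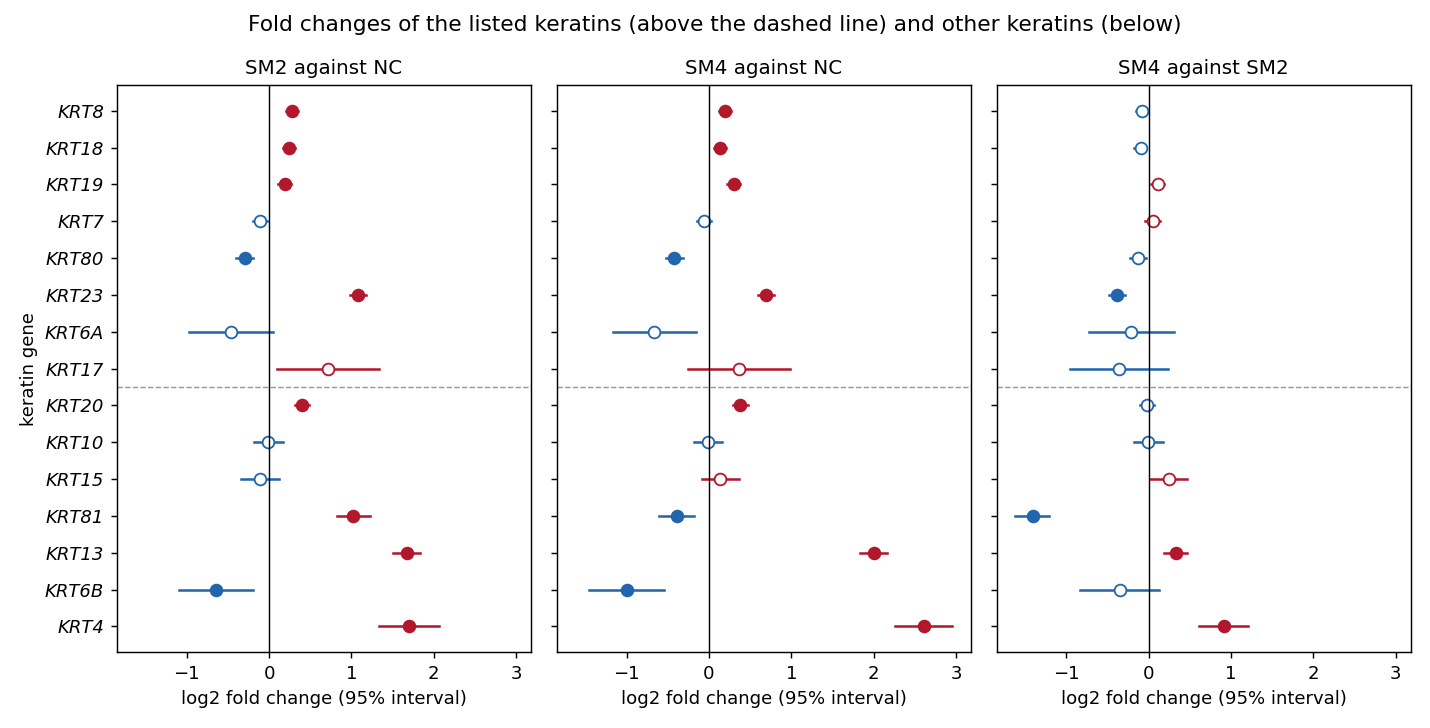
Log2 fold changes (points) with 95% intervals (lines) of the 8 tested listed keratins above the dashed line and of the other keratins with at least 1 CPM below it, for each of the 3 pairs of groups, with filled points called at an adjusted p below 0.05, red for higher and blue for lower. The listed keratins other than KRT23 stay within 1 unit of 0, and KRT13 and KRT4 have the highest values against NC, up to 2.61.

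The other 46 keratin genes were mostly silent, and 11 of them had enough counts to be tested. In SM2 against NC 5 were higher and 1 lower, in SM4 against NC 3 were higher and 2 lower, and in SM4 against SM2 2 were higher and 1 lower, with medians of 0.17, -0.01 and -0.02 on the log2 scale. That is 6, 5 and 3 of 11 called, where 22.3%, 21.2% and 12.8% of all genes were. KRT13 and KRT4, which pair in the non-cornified epithelium of the oesophagus and of the lower female tract, rose together from low levels. KRT13 was at 5.27, 5.41 and 5.18 CPM in NC, 16.4, 17.1 and 17 CPM in SM2, and 21.2, 20.9 and 21.3 CPM in SM4, with no overlap between groups. It was higher than in NC by 1.67 in SM2 (adjusted p 3.84e-12) and by 2.00 in SM4 (adjusted p 1.03e-13). SM4 was above SM2 by 0.33 (adjusted p 0.00204). The study lists KRT13 as lower in both knockdowns than in its control, so these values cannot be read as a rise on knockdown. If SM4 were that control, KRT13 would be lower in both other groups, and the 1.67 would compare knockdown with knockdown.

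KRT4, its type II partner, was at 1.21, 0.883 and 0.82 CPM in NC, 2.6, 3.22 and 3.49 CPM in SM2, and 5.92, 6.06 and 5.56 CPM in SM4, again with no overlap. It rose by 1.70 (SE 0.174, adjusted p 4.06e-07) and 2.61 (SE 0.166, adjusted p 3.63e-10) against NC, and SM4 was above SM2 by 0.91 (adjusted p 0.000163). These keratins of stratified epithelium changed far more than KRT6A or KRT17, yet KRT13 reached only 12.3 CPM per kilobase in SM4. KRT20, a type I chain of intestinal epithelium and the fifth most abundant keratin per kilobase, rose from 209 ± 5.98 CPM to 276 ± 3.76 CPM in SM2 (0.40, adjusted p 5.61e-07) and 272 ± 10.3 CPM in SM4 (0.38, adjusted p 1.03e-06). KRT10 (31.5, 31.4 and 31.3 CPM) and KRT15 (10.4, 9.64 and 11.4 CPM), chains of the upper and basal epidermis, were not called, and KRT15 was called in SM4 against SM2 without SM2 replicate 3 (0.36, adjusted p 0.024).

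KRT81, a hair keratin of type II, went one way in SM2 and the other in SM4. It was at 7.16, 9.4 and 8.12 CPM in NC, 16.5, 15.8 and 17.9 CPM in SM2, and 6.68, 6.2 and 5.95 CPM in SM4, and no 2 groups overlapped. It rose by 1.02 (adjusted p 1.56e-07) in SM2 and fell by 0.39 (adjusted p 0.00786) in SM4 against NC, the latter call being lost without NC replicate 2 (-0.29, adjusted p 0.0796). SM4 was below SM2 by 1.41 on the log2 scale (log2 fold change -1.41, adjusted p 4.18e-09). KRT81 lies within the span of KRT86, on the other strand, so the limit on strand may apply here too. The KRT81 transcript shares 44.6% of its 50-base stretches with other keratins, mostly KRT86. With KRT86 added, its log2 fold changes were 0.96, -0.37 and -1.33, each called.

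RNA of the genes whose proteins anchor keratin filaments changed in a mixed way. Of 23 genes of desmosomes and hemidesmosomes, 18 were tested. In SM2 against NC 4 were higher and 5 lower, in SM4 against NC 7 were higher and 2 lower, and in SM4 against SM2 6 were called, all of them higher, with medians of -0.05, 0.06 and 0.08 beside 0 for all genes. So 9, 9 and 6 of 18 were called, beside 22.3%, 21.2% and 12.8% of all genes. DSG2 and DSC2, the desmosomal cadherins of simple epithelia, were lower in both comparisons with NC. DSG2 fell from 209.9 ± 6.21 CPM to 157 ± 9.06 in SM2 (-0.42 on the log2 scale) and 163 ± 5.52 in SM4 (-0.37), and DSC2 from 38.4 ± 0.666 CPM to 29.5 ± 2.38 (-0.38) and 30.8 ± 0.992 (-0.32), with adjusted p of at most 0.000581.

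Genes of the hemidesmosome, which ties keratins to the basement membrane, were mixed. ITGB4 rose from 488 ± 10.6 CPM to 579 ± 26.8 in SM2 (0.25, adjusted p 0.000148) and 653 ± 7.76 in SM4 (0.42, adjusted p 1.76e-07), and COL17A1 from 4.45 ± 0.169 CPM to 6.07 ± 0.145 in SM2 (0.45, adjusted p 0.00837) and 6.22 ± 0.919 in SM4 (0.48, adjusted p 0.00434). ITGA6, the integrin partner of ITGB4, named after its values were seen, fell from 1190.2 ± 29.7 CPM to 996 ± 53.6 in SM2 (-0.26, adjusted p 9.48e-05) and was not called in SM4 against NC (-0.07), and the linkers PLEC (-0.17 and -0.03) and DST (-0.13 and -0.11) were not called in either. The plakins EPPK1 and PPL, which bind keratin filaments directly, were higher in SM4 than in SM2, by 0.53 (adjusted p 0.000851) and 0.31 (adjusted p 0.000169). SM2 replicate 3 was the lowest SM2 library for both, at 19 CPM of EPPK1 and 311 CPM of PPL.

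**Figure D4:**
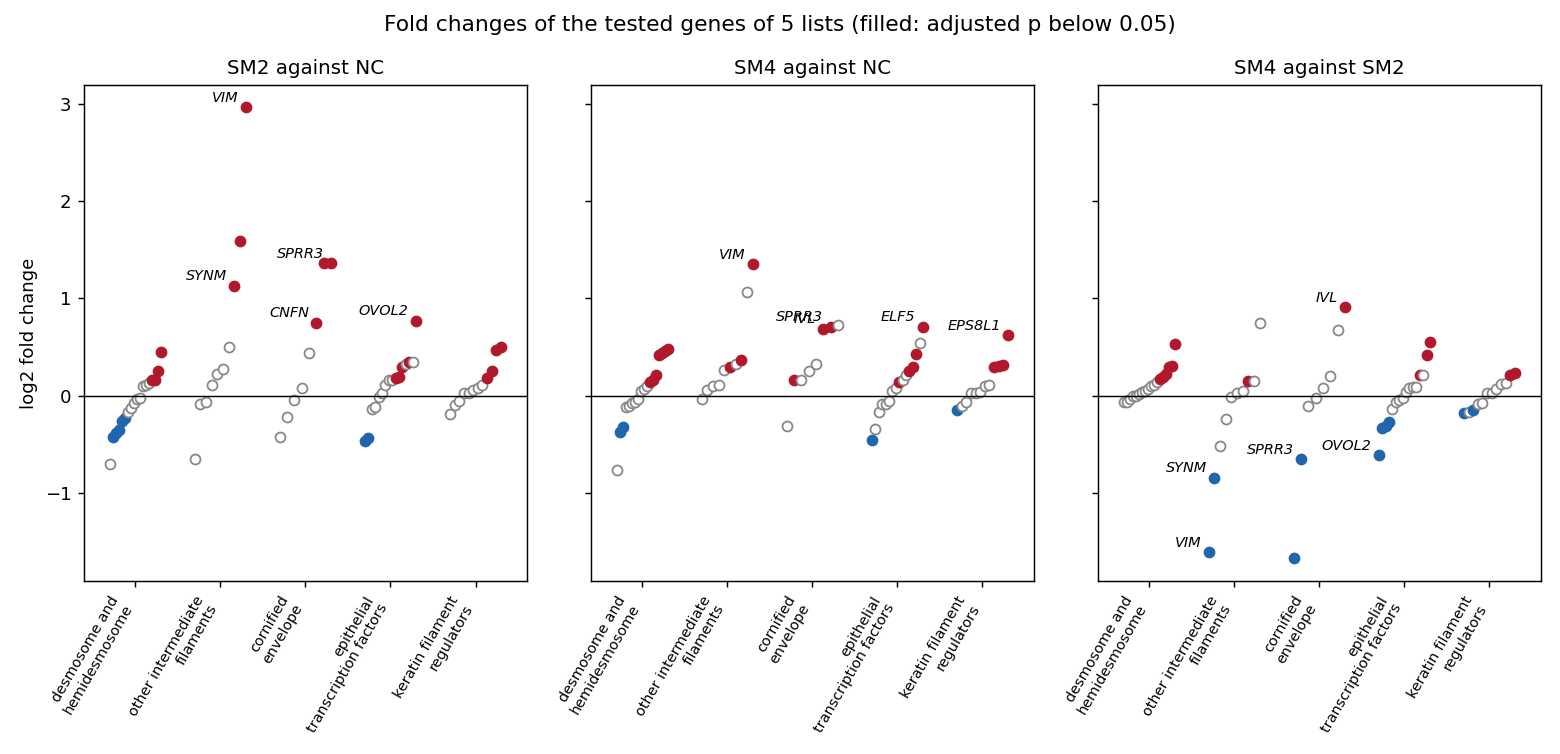
Log2 fold changes of the tested genes of 5 lists related to keratin filaments, each point a gene, for each of the 3 pairs of groups, with filled points called at an adjusted p below 0.05 (red higher, blue lower) and some genes named. VIM stands highest against NC, at 2.96 in SM2 and 1.35 in SM4.

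Among 16 other intermediate filament genes, 10 were tested, and 3 were called in each comparison with NC, all of them higher (medians 0.25 and 0.28), where 22.3% and 21.2% of all genes were called in either direction. VIM (vimentin), the filament of mesenchymal cells, was at 6.3, 5.74 and 4.72 CPM in NC, 42.6, 41.6 and 45 CPM in SM2, and 14.7, 15.3 and 12.3 CPM in SM4, with no overlap. It rose 7.76-fold in SM2 (2.96, SE 0.0964, adjusted p 6.09e-14) and 2.55-fold in SM4 (1.35, SE 0.099, adjusted p 3.03e-09), and SM4 was below SM2 (-1.61, adjusted p 9.37e-11). VIM-AS1 overlaps VIM on the other strand, so the same limit on strand applies. SYNM (synemin), which co-assembles with vimentin and desmin, rose by 1.13 in SM2 (adjusted p 4.02e-09) and by 0.29 in SM4 (adjusted p 0.0178, a call lost when NC replicate 1 (0.259) or 2 (0.282) or SM4 replicate 1 (0.249) was left out), and was lower in SM4 than in SM2 by 0.84 (log2 fold change -0.84, adjusted p 3.88e-07). NES (nestin) rose by 0.37 in SM4 (adjusted p 0.00158). LMNA, a nuclear lamin, was higher in SM4 than in SM2 by 0.15 (adjusted p 0.0114), a call lost without SM4 replicate 1 (0.16) or 2 (0.13). In that comparison of SM4 with SM2, 1 gene of the list was higher and 2 were lower (median 0.01), beside 12.8% of all genes called.

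The cornified envelope list, which marks the dead outer layer of stratified epithelium, was mostly silent, with 8 of 25 genes tested. In each comparison with NC 3 were called, all of them higher (medians 0.26 and 0.29), and in SM4 against SM2 1 was higher and 2 lower (median 0.03). The shares called over all genes were 22.3%, 21.2% and 12.8%. IVL (involucrin) was at 4.73 ± 0.476 CPM in NC, 4.08 ± 0.294 in SM2 and 7.66 ± 0.528 in SM4, higher in SM4 than in NC by 0.69 (adjusted p 9.57e-05) and than in SM2 by 0.91 (adjusted p 9.47e-06). SPRR3 was at 0.764 ± 0.0819, 1.97 ± 0.0982 and 1.24 ± 0.304 CPM and rose by 1.36 in SM2 (adjusted p 0.000114). Its rise of 0.71 in SM4 (adjusted p 0.0283) was lost without NC replicate 2 (0.633) or 3 (0.718) or SM4 replicate 2 (0.496). Its difference of -0.65 between SM4 and SM2 (adjusted p 0.0425) was called only without NC replicate 2 or SM4 replicate 2 among the fits without 1 library, which ranged from -0.869 to -0.522. The rise of CNFN in SM2 (0.75, adjusted p 0.0472) was called only without SM2 replicate 1 or SM4 replicate 1 or 2, with a range of 0.652 to 0.843.

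Of 18 transcription factors of epithelial identity, 16 were tested, with 5 higher and 2 lower in SM2, 5 higher and 1 lower in SM4, and 3 higher and 4 lower in SM4 against SM2 (medians 0.16, 0.11 and 0.01), and over all genes 22.3%, 21.2% and 12.8% were called. ELF3, an ETS factor of simple epithelia, rose from 179.5 ± 9.09 CPM to 228 ± 3.82 in SM2 (0.35, adjusted p 6.21e-06) and 242 ± 5.18 in SM4 (0.43, adjusted p 3.1e-07). ELF5 rose in SM4 (0.71, adjusted p 6.04e-06), and OVOL2 rose in SM2 (0.77, adjusted p 0.000116), where OVOL1 fell (-0.46, adjusted p 5.67e-05). All 3 were called between SM4 and SM2, at 0.55, -0.61 and 0.42. CDX2, an intestinal factor, fell in SM4 against NC (-0.45, adjusted p 0.000558). TFAP2A was lower in SM4 than in SM2 (-0.33, adjusted p 0.0116), which was lost without SM4 replicate 2 (-0.24), and SOX2 was lower in SM2 (-0.43, adjusted p 0.0446), which was called only without NC replicate 2, SM2 replicate 3 or SM4 replicate 3 (range of all such fits -0.545 to -0.309).

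All 12 genes of a list meant for regulators of keratin filaments were tested. Whether each member acts on keratin filaments was not tested. In SM2 4 were called, all of them higher, in SM4 4 were higher and 1 lower, and in SM4 against SM2 2 were higher and 2 lower (medians 0.07, 0.07 and 0.03), against 22.3%, 21.2% and 12.8% of all genes called. EPS8L1 had the largest change, from 49.9 ± 1.34 CPM to 70.7 ± 3.86 in SM2 (0.50, adjusted p 4.41e-07) and 76.8 ± 2.82 in SM4 (0.62, adjusted p 1.78e-08). HSPB1, a small heat shock protein that binds keratins, rose in SM2 (0.47, adjusted p 7.36e-06) and in SM4 (0.30, adjusted p 0.000868). TRIM29, a ubiquitin ligase, rose in SM2 (0.25, adjusted p 0.00027) and in SM4 (0.32, adjusted p 1.51e-05). Between SM4 and SM2 the called changes were small. YWHAZ (-0.18, adjusted p 0.00865) lost its call without SM4 replicate 3 (-0.149), and TCHP (0.23, adjusted p 0.0317) without SM2 replicate 3 (0.156) or any 1 SM4 library (0.209 to 0.255). AKAP9 (0.21, adjusted p 0.0259) lost it without SM2 replicate 2 (0.201) or SM4 replicate 1 (0.139) or 3 (0.211). SFN (-0.15, adjusted p 0.038) kept it only without SM2 replicate 1 or 2, within a range of -0.189 to -0.104. The fall of YWHAZ in SM4 against NC (-0.15, adjusted p 0.0202) was lost when NC replicate 1 (-0.118) or 2 (-0.134) was left out, and likewise for SM4 replicate 1 (-0.157) or 3 (-0.117).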

How the data were processed

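RNA from 9 libraries was sequenced, and the authors deposited 1 table of raw read counts per gene, with no normalization. Per the labels and the submitters' processing notes the reads were trimmed with fastp, aligned to GRCh38 (hg38) with HISAT2 and counted with featureCounts of Subread, with versions not given in the sources used here. The labels and the study's methods differ on the library kit and read layout, and the strand setting of the counting is not stated. Groups came from the library titles. Of 60649 identifiers, 60507 matched GENCODE v44 with versions removed.

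Counts were tested with edgeR 4.0.16 (R 4.3.3) by the quasi-likelihood F test on all 9 libraries, with TMM scaling, filterByExpr (19674 genes kept) and group as the only term, and p-values were adjusted by Benjamini and Hochberg over all tested genes and called below 0.05. CPM values were normalized with the same factors, and correlations used log2 CPM with a prior count of 2. Levels per kilobase used the length of 1 representative (MANE Select) transcript a gene. Sequences came from the GRCh38 reference. Keratins averaging 1 CPM or more were all named, and for each called listed keratin the 2 most correlated protein-coding genes were. The genes most correlated with KRT19 are not reported here. The fit was tested on simulated data. In the other lists, named genes were the 2 called genes that changed most in each direction and comparison, among those averaging 1 CPM or more in some group. DESeq2 1.42.0, other scalings and filters, a replicate block, a length correction and the removal of each library were alternatives. The members and lists were chosen with earlier results of these data known.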

Additional observations from a re-analysis of the deposited data

Results flagged for a closer look

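The levels of 4 keratins differed between the libraries labelled SM4 and SM2 in the direct test of that difference (edgeR quasi-likelihood test). KRT23 was lower in SM4 (log2 fold change -0.39), while it was above NC in both. KRT81 was also lower in SM4 (-1.41), and it was above NC in SM2 and below NC in SM4. KRT4 (0.91) and KRT13 (0.33) were higher in SM4. Each direction held in 3 of 3 libraries, with no overlap between the groups.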

How the results depend on the processing

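With groups of 3 libraries that may be technical repeats, small changes of abundant keratins pass the test, and KRT6A, KRT17 and KRT5 rest on few counts. KRT23 kept its direction and call in all comparisons under every alternative run. Over the listed keratins, 454 log2 fold changes kept direction and side of the threshold, 2 lost their call, 19 gained one and 1 changed sign. With the adjusted p below 0.01, 2775, 2646 and 1393 genes were called (for SM2 and then SM4 against NC, then for SM4 against SM2), beside 4389, 4173 and 2518. Leaving out 1 library gave 3209 to 4623, 2933 to 5227 and 1574 to 2748, the lowest of the last without SM4 replicate 1. In SM4 against SM2, 2 listed keratins were called with DESeq2, 3 with the gene length trend removed, 3 with that and the replicate block, and 1 to 3 without 1 library, where the main count was 1 (3 without SM2 replicate 3, 2 without SM4 replicate 2). The type I to type II ratio was 1.49, 1.57 and 1.62 (NC, SM2, SM4) with merged exon lengths and 0.821, 0.838 and 0.858 with copies added. The causes were not tested.

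Near 0, signs changed. Without 1 library, KRT10 ranged from -0.132 to 0.07 in SM2 against NC, from -0.068 to 0.037 in SM4 against NC and from -0.084 to 0.122 in SM4 against SM2, and KRT20 from -0.051 to 0.004 in the last. KRT10 was 0.008 and 0.005 against NC with upper-quartile scaling, and in SM4 against SM2 0.002 with the replicate block, 0.016 with the length trend removed and 0.022 with both. KRT17 in SM4 against SM2 was 0.487 with its copies added, and KRT20 there was 0.006 with the length trend removed, with or without the block.

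Replicate numbers did not pair the samples (correlations of deviations -0.053 to 0.0453). With the replicate block, 4693, 4484 and 2815 genes and 5, 5 and 1 listed keratins were called.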
